A study of Drosophila melanogaster with 8 samples.

Results

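Seminal fluid genes of the male accessory gland were examined on arrays of fly head RNA. They were the 10 genes Acp98AB, Acp53C14a, Acp53C14b, Acp53Ea, Acp26Aa, Acp26Ab, Acp36DE, Acp62F, Acp63F and SP, taken as every probe set that the platform annotation gives 1 of these symbols, without a filter. Each had 1 probe set, so that 10 of the 18952 probe sets on the array were read. By its title, the study asked how an oscillating cluster of miRNAs, miR-959 to miR-964, bears on when flies feed and on other rhythms of the clock.

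RNA came from heads removed from frozen flies of 4 strains. Flies had spent 3 days in cycles with 12 h of light and 12 h of darkness, and were taken at ZT4 and at ZT16, that is 4 h and 16 h into a cycle that starts with lights on. A strain labelled w1118 ; mir959-962-KO, called the knockout here, has the w1118 strain as its control. A strain labelled yw ; tim-gal4/CyO, called the tim-gal4 control, carries the tim-gal4 driver over the CyO balancer chromosome. Its partner is labelled yw ; tim-gal4, UAS-mir-cluster/CyO and is called overexpression. The driver uses the promoter of the clock gene tim, so the transgene is directed to cells that express tim. Sex, age and the number of flies in a sample are not given in the sources used here. Each of the 8 conditions had 1 array and no replicate, so a difference between single arrays is a value that no test stands behind.

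Accessory glands are paired organs of the male abdomen whose cells secrete most of the proteins of the seminal fluid. These proteins pass to the female with the sperm and change egg laying, sperm storage and the readiness to mate again. The glands, testes, ejaculatory duct and ejaculatory bulb all lie in the abdomen, and the head holds none of them.

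Values are log2 intensities in which 2.32 was the lowest value on each array. A gene close to 2.32 was not seen above background, and the size of a difference from such a value is not quantitative. A level at one probe set cannot be compared with the level at another. In bulk RNA, fewer cells of a type and less RNA per cell cannot be told apart.

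The ZT16 arrays of the knockout and of the tim-gal4 control, called the 2 high arrays here, stood apart from the other 6 in these genes. They were singled out with their values known, so their height in these genes is a description. On all 8 arrays between 39.8% and 40.8% of the 18769 probe sets other than controls read at least 4, and the highest value lay between 14.8 and 14.9. Of 6 measured genes of neurons and photoreceptors, 5 read well above 4 on every array. The photoreceptor channel gene trp lay between 11.43 and 12.23, the scaffold gene inaD between 9.11 and 10.26, the synaptic vesicle gene nSyb at 6.93 or above, the GABA receptor gene Rdl between 7.33 and 8.84, and the neuronal RNA-binding protein gene elav between 6.35 and 8.33. The sixth, the synapse gene brp, lay between 3.24 and 5.58 and read under 4 on the tim-gal4 control ZT16 array (3.24) and the overexpression ZT4 array (3.97). The yolk protein genes Yp1, Yp2 and Yp3, made in the female fat body, read between 13.58 and 14.89 on every array.

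All 10 seminal fluid genes were high on these 2 arrays and at background on 5 others. On the knockout ZT4 array 9 of the 10 were at background and Acp98AB was above it. The median of the 10 genes was 9.71 at ZT16 in the knockout and 8.97 at ZT16 in the tim-gal4 control. On the other 6 arrays the median lay between 2.32 and 2.33.

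**Figure D1:**
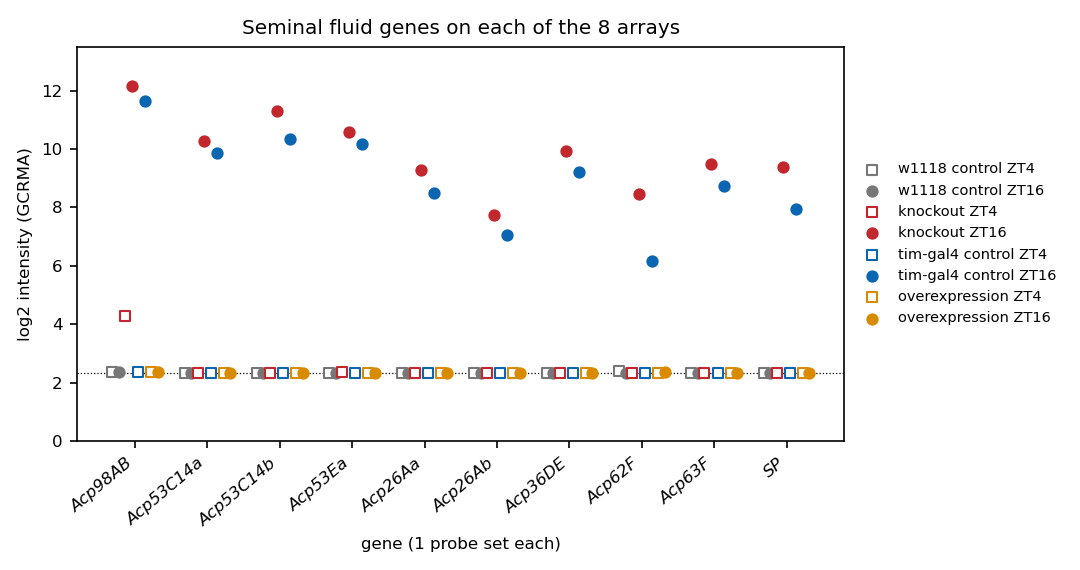
Log2 intensity (vertical axis) of the 10 seminal fluid genes (horizontal axis) on each of the 8 arrays, with ZT4 as open squares, ZT16 as filled circles and colour for the strain. The dotted line is the lowest value, 2.32. The knockout ZT16 circles lie between 7.74 and 12.15 and the tim-gal4 control ZT16 circles between 6.17 and 11.64, while Acp98AB on the knockout ZT4 array (4.28) is the only other mark well above the line.

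SP encodes the sex peptide, which binds a receptor in the female, lowers her readiness to mate again and raises egg laying. At ZT4 it read 2.33 in each of the 4 strains. At ZT16 it read 9.40 in the knockout and 7.96 with the driver alone, against 2.33 in w1118 and 2.33 in flies with the transgene. Acp26Aa encodes ovulin, which stimulates the release of eggs from the ovary. Its values were 9.30 on the knockout ZT16 array, 8.49 on the tim-gal4 control ZT16 array and 2.32 on each of the other 6. The neighbouring gene Acp26Ab, which encodes a small secreted peptide, read 7.74 and 7.07 on these 2 arrays and 2.32 on each of the other 6. No other gene lies between Acp26Ab and Acp26Aa on chromosome arm 2L in the RefSeq gene table.

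Acp36DE encodes a large glycoprotein that is needed for the storage of sperm in the female. The 2 high arrays read 9.92 (knockout) and 9.23 (tim-gal4 control), against at most 2.33 elsewhere. Acp62F encodes an inhibitor of serine proteases. At ZT4 its values were 2.39 in w1118 and 2.34 in each of the other strains. At ZT16 the knockout read 8.48 and the tim-gal4 control 6.17, against 2.34 in w1118 and 2.35 in flies with the transgene. In each of these genes both high arrays lay above all of the other 6, and the knockout ZT16 value was above the tim-gal4 control ZT16 value.

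Acp53C14a, Acp53C14b and Acp53Ea are related genes that follow each other on chromosome arm 2R with no other gene between neighbours. Acp53C14a read 10.26 on the knockout ZT16 array and 9.87 on the tim-gal4 control ZT16 array. For Acp53C14b these values were 11.30 and 10.36, and for Acp53Ea 10.59 and 10.17. On the other 6 arrays Acp53C14a and Acp53C14b were at 2.32 and Acp53Ea was at most 2.37. Whether the probes of one of these related genes bind transcripts of another was not analysed here, so their values may not be independent.

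Acp63F and Acp98AB encode secreted proteins of the accessory gland. Acp63F read 9.49 and 8.72 on the 2 high arrays and 2.33 on each of the other 6. For Acp98AB the knockout went from 4.28 at ZT4 to 12.15 at ZT16, and the tim-gal4 control from 2.37 to 11.64. Both w1118 and the flies with the transgene read 2.37 at ZT4 and 2.36 at ZT16. Acp98AB was thus the only one of the 10 genes that read at least 4 outside the 2 high arrays.

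The lower of the 2 high arrays exceeded the highest of the other 6 by 3.78 on the log2 scale for Acp62F and by 8.04 for Acp53C14b, with the other 8 genes between these values. All 10 genes were at least 2-fold higher on both arrays than on each of the other 6, as were 519 (2.77%) of the 18769 probe sets other than controls. All 10 passed a filter of at least 4 on at least 2 arrays. They passed it through these arrays, so passing says nothing about the genes.

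Within strains, the change from ZT4 to ZT16 divided the strains into pairs. In the knockout all 10 genes were at least 2-fold higher at ZT16, with a median log2 difference of 7.38 and a range from 5.41 to 8.98, where 4.09% of all probe sets were that much higher. The tim-gal4 control also had 10 of 10, with a median of 6.65 and a range from 3.83 to 9.27, where 3.61% of all probe sets were higher. In w1118 it was 0 of 10, with differences between -0.05 and 0.00 and a share of 0.314% over all probe sets. Overexpression had 0 of 10 as well, with differences between -0.01 and 0.01 and a share of 0.245%.

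Each manipulated strain was then set against its own control at the same time of day. At ZT16 all 10 genes were at least 2-fold higher in the knockout than in w1118, with a median log2 difference of 7.38, and 4.39% of all probe sets were. At ZT4 this held for 1 of 10 (Acp98AB, 1.91), against 0.698% of all probe sets. Overexpression at ZT16 was at least 2-fold lower than the tim-gal4 control in 10 of 10 genes, with a median of -6.65, and 4.59% of all probe sets were lower. At ZT4 it was 0 of 10, with differences of 0.00, against 1.57% of all probe sets. The high array belonged to the manipulated strain in the first pair and to the control in the second.

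A model fitted with limma across 8300 probe sets, with strain and time as terms and all 8 arrays, tested averaged contrasts: ZT16 against ZT4 over all strains, and each manipulated strain against its control over both times. It called 0 of 10 genes at an adjusted p under 0.05 in each of the 3 contrasts, and 0 of 10 had an unadjusted p under 0.05. Of the 8300 probe sets, 1371 had an unadjusted limma p under 0.05 for time, 1170 for the knockout and 3000 for overexpression. For ZT16 against ZT4 over the 4 strains the log2 differences lay between 2.48 and 4.28, with standard errors from 1.12 to 1.89 and adjusted p-values from 0.292 to 0.296 in limma. Of all probe sets tested, 0.157% were called higher at ZT16. For the knockout against w1118 the differences lay between 2.71 and 5.85 (standard errors from 1.58 to 2.67, adjusted p from 0.405 to 0.470 in limma), and 0.759% of probe sets were called higher. For overexpression against the tim-gal4 control they lay between -4.64 and -1.91 (standard errors from 1.58 to 2.67, adjusted p from 0.274 to 0.431 in limma), and 6.18% of probe sets were called lower. This model counts as error any time change that is not shared by all strains, which in these genes was large.

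The 2 high arrays could be compared with each other above background, where differences have a readable size. All 10 genes were higher on the knockout array. The median log2 difference was 0.73, and the range ran from 0.39 for Acp53C14a to 2.31 for Acp62F. Of the 7183 probe sets that read at least 4 on both arrays, 56.6% were higher on the knockout array, with a median difference of 0.07. Among the 362 other probe sets that were at least 2-fold higher on both arrays than on each of the other 6, 60.8% were higher on the knockout array, with a median of 0.18.

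Acp62F was 4.94-fold and SP 2.71-fold higher on the knockout array, and these were the 2 of 10 genes past 2-fold. This held for 2.66% of all probe sets, 3.83% of those at 4 or more on both arrays, and 10.5% of the 362 other probe sets high on both arrays. The ratio was 1.92 for Acp53C14b, 1.75 for Acp26Aa, 1.71 for Acp63F, 1.62 for Acp36DE and 1.59 for Acp26Ab. It was 1.43 for Acp98AB, 1.34 for Acp53Ea and 1.31 for Acp53C14a. Both Acp26 genes thus lay close to each other in this ratio, while Acp53C14b lay apart from its relatives Acp53C14a and Acp53Ea. With 1 array in each condition no spread is known, so none of these ratios can be said to differ from another.

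**Figure D2:**
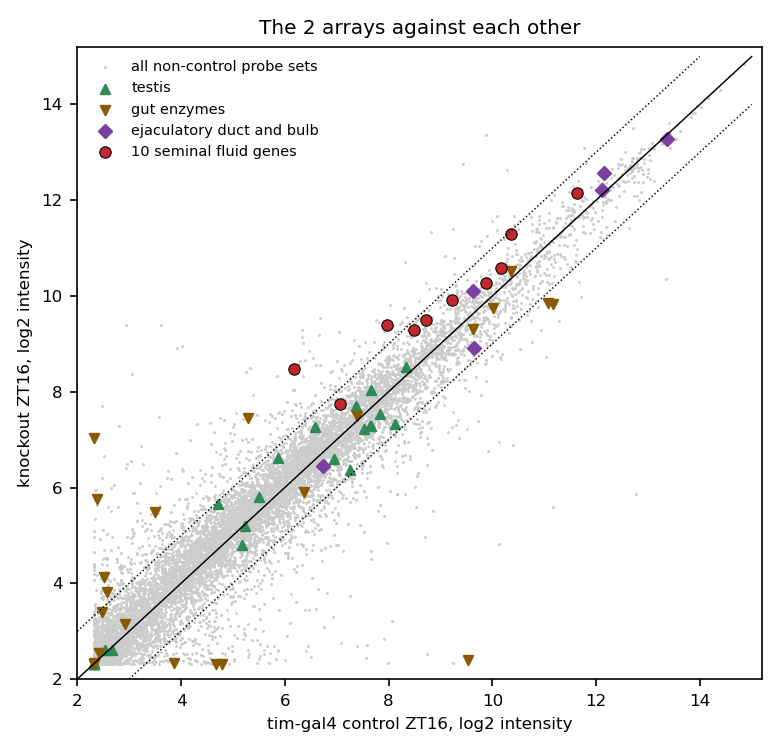
Log2 intensity on the knockout ZT16 array (vertical axis) against the tim-gal4 control ZT16 array (horizontal axis), with a dot for each of the 18769 probe sets other than controls and symbols for 4 gene lists. The solid line marks equal values and the dotted lines a 2-fold difference. All 10 seminal fluid genes lie above the solid line, with Acp62F and SP above the upper dotted line, whereas testis genes lie on both sides of the solid line.

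Other genes of seminal fluid were read from 4 lists of known genes. Of 29 measured genes, 20 were at least 2-fold higher on both arrays than on each of the other 6, against 2.77% of all probe sets. The median of all 29 genes was 5.53 on the knockout ZT16 array and 4.30 on the tim-gal4 control ZT16 array, and 2.32 on the other 6. Of the 19 tested in the limma fit, 0 were called in each of the 3 contrasts, with adjusted p-values of at least 0.282 in limma. An unadjusted p under 0.05 was found for 1 gene over time and for 0 in the other contrasts. None of the 29 read at least 4 on the other 6 arrays. The 19 thus passed the filter only through the 2 high arrays, and the limit of the model given above holds for them too. Of the 19 that read at least 4 on both arrays, 18 were higher on the knockout array, 8 of them at least 2-fold, and the median difference was 0.97. Over the 7183 probe sets at 4 or more on both arrays these shares were 56.6% and 3.83%. Over the 362 probe sets high on both arrays, without the 10 genes, they were 60.8% and 10.5%.

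Among further Acp genes, Mst57Da read 11.20 on the knockout ZT16 array and 10.22 on the tim-gal4 control ZT16 array, Mst57Dc 9.26 and 7.90 in the same order, and the serpin gene Acp76A 7.71 and 7.17. Acp32CD, with 6.34 and 6.37, was the one gene of the 19 that was not higher on the knockout array. Acp53C14c, a relative of the Acp53 genes above, read 5.76 and 4.08. Acp95EF read between 3.08 and 3.85 on all arrays and was not clearly above background on any.

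Of the 6 measured Sfp genes, which are named only for their presence in seminal fluid, 4 were high on both arrays. Sfp24Bb read 11.25 and 9.91, Sfp26Ad 7.60 and 5.98, and Sfp53D 4.87 and 4.63. Sfp33A3 read 7.67 and 6.44, and it was also at 3.12 on the w1118 ZT16 array and 2.52 on the overexpression ZT16 array. Sfp38D was at 2.82 and 3.09 on these arrays and at 2.32 on the other 6, and Sfp65A was at 2.32 on all 8.

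The sex peptide acts for days after mating because other seminal proteins help it bind to sperm. Of 8 genes of this network measured, 5 read at least 4 on both arrays. All 5 were higher on the knockout array, by a median of 0.88, where 56.6% of all probe sets at 4 or more on both were higher. Values on the 2 high arrays, the knockout first, were 5.84 and 4.87 for CG17575, 5.30 and 4.24 for the protease gene Sems, 5.53 and 4.65 for lectin-46Cb, and 4.75 and 4.30 for lectin-46Ca. The network genes antr (4.01 and 3.14), aqrs (5.33 and 3.25) and intr (2.88 and 2.45) read at least 4 on 1 array or on none.

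Among 8 seminal proteases and protease inhibitors, 4 read at least 4 on both arrays, and all 4 are serpins, which are inhibitors of proteases. CG6168 of this list read 5.11 and 3.41, against at most 2.34 on the other 6, and CG4017 was at 2.32 on all 8. Spn77Bb read 10.80 and 9.26, Spn77Bc 9.54 and 8.58, Spn38F 8.60 and 8.35, and Spn28F 8.33 and 7.72. Spn75F read 4.65 on the knockout ZT16 array and was at background (2.32) on all others. The protease gene Semp1, whose product processes ovulin, was low at 3.08 and 2.65.

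The receptor of the sex peptide, SPR, is made in neurons and was measured in all heads. The probe set with the higher mean went from 6.13 at ZT4 to 5.46 at ZT16 in w1118 and from 6.07 to 5.10 in the knockout. The same values were 7.42 and 6.53 for the tim-gal4 control, and 6.78 and 6.17 for the flies with the transgene. At this probe set SPR was thus lower at ZT16 than at ZT4 in each strain. The adjusted p in limma was 0.0543 for time, 0.470 for the knockout and 0.0542 for overexpression. The SPR level at this probe set did not separate the 2 high arrays from the rest. The transcription factor gene prd, which the accessory gland needs to form, read 2.76 and 2.80 on the 2 high arrays and 2.32 on the other 6.

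Genes of other tissues were high on the same 2 arrays, and their part in the result was not tested. In the ejaculatory duct and bulb list the mating plug genes EbpII and Ebp read 12.58 and 12.21 on the knockout ZT16 array and 12.15 and 12.11 on the tim-gal4 control ZT16 array. The antibacterial peptide gene Anp read 10.11 and 9.64, and Dup99B, which encodes a relative of the sex peptide, 8.91 and 9.65. These 4 genes were at most 2.56 elsewhere. The other 2 of the list, EbpIII and Gld, are made in heads too, with lowest values of 13.16 and 4.81.

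Of 23 testis genes, 16 read at least 4 on each of the 2 arrays and none did on the other 6, where the list medians lay between 2.33 and 2.35. On the knockout ZT16 and then the tim-gal4 control ZT16 array, ocn read 8.51 and 8.33, Mst84Dc 8.05 and 7.67, Mst77F 7.70 and 7.36, and the testis tubulin gene betaTub85D 7.29 and 7.64. The 7 genes that read under 4 on both were bam, aly, comr, can and topi, each at 2.32 to 2.33, dj (2.60 and 2.53) and fzo (2.61 and 2.67). Gut enzymes read at least 4 in 12 of 23 on the knockout ZT16 array and in 11 of 23 on the tim-gal4 control ZT16 array, against 2 of 23 on each of the others. These 2 were LManII and LManI, which read at least 5.18 on every array. The trypsin gene alphaTry read 9.83 and 11.18 on the 2 high arrays, and the protease gene Jon65Aiv 10.53 and 10.35. None of 15 ovary and eggshell genes read above 2.79 on any array, among them the eggshell genes Cp36 (at most 2.48), Cp19 (at most 2.79), Cp18 (at most 2.55) and Cp38 (at most 2.36), and the spermathecal genes Send1 and Send2 were at 2.32 on all 8.

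**Figure D3:**
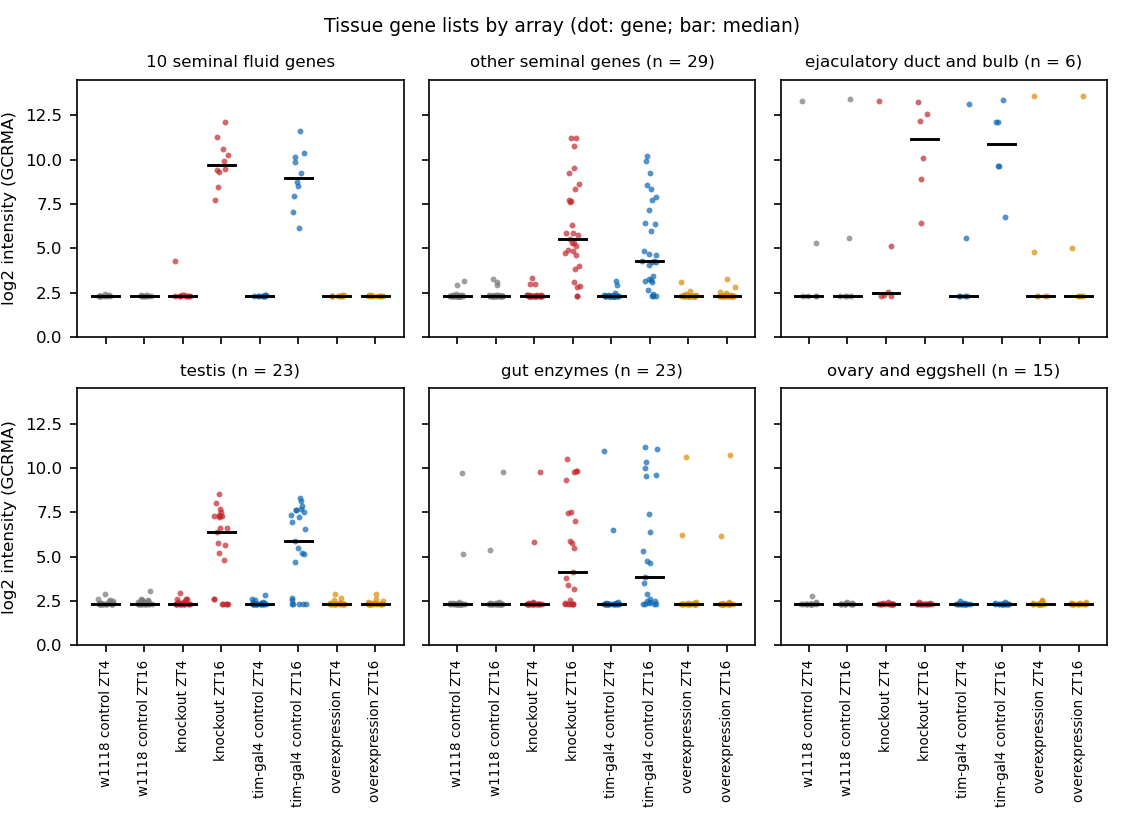
Log2 intensity (vertical axis) of the genes of 6 groups on each of the 8 arrays (horizontal axis), with a dot for each gene and a bar at the median. The 4 lists of other seminal genes are drawn together. Seminal, duct, testis and gut genes rise above 2.32 on the ZT16 arrays of the knockout and the tim-gal4 control, while ovary and eggshell genes stay at most at 2.79 on all arrays.

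Each list was also read for how the 2 arrays compared, among genes that read at least 4 on both. Of all 7183 such probe sets, 56.6% were higher on the knockout array. Of the 362 that were high on both arrays, without the 10 genes, 60.8% were. In the seminal lists the knockout array was the higher one in 10 of 10 of the genes described first, 5 of 6 further Acp genes, 4 of 4 Sfp genes, 5 of 5 network genes and 4 of 4 protease and inhibitor genes. In the ejaculatory duct and bulb list this held for 3 of 6, with a median difference of 0.01. These 6 included EbpIII (-0.08) and Gld (-0.30), which read at least 4 on every array. The others were Anp (0.47), EbpII (0.43), Ebp (0.10) and Dup99B (-0.74). For testis genes the knockout array was higher in 7 of 16, with a median of -0.17 and a range from -0.90 to 0.95. For gut enzymes it was higher in 3 of 8, with a median of -0.29 and a range from -1.35 to 2.15. These 8 included LManII (-1.22) and LManI (-0.46), which read at least 4 on every array. The medians of these lists thus mix in genes with signal in all heads. Some gut proteases were high on only 1 array, as betaTry was (2.39 on the knockout array and 9.54 on the tim-gal4 control array) and, the other way round, Jon99Fi (7.03 and 2.32). These counts come from a single pair of arrays and were not tested against each other.

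**Figure D4:**
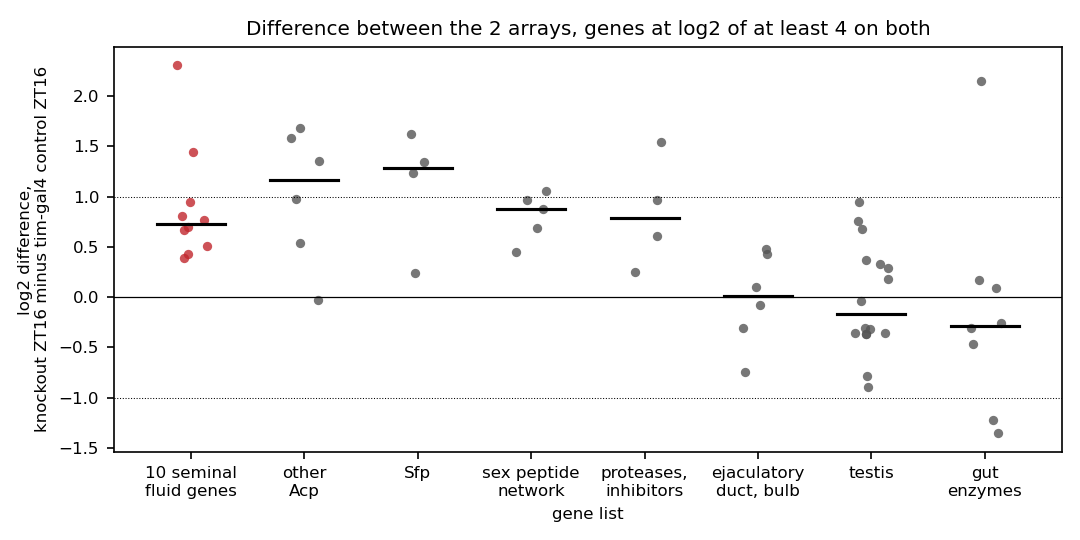
Log2 difference of the knockout ZT16 array minus the tim-gal4 control ZT16 array (vertical axis) for genes of 8 lists (horizontal axis) that read at least 4 on both arrays, with a dot for each gene and a bar at the median. Dotted lines mark a 2-fold difference. The 10 seminal fluid genes lie between 0.39 and 2.31, and the medians of the duct, testis and gut lists are 0.01, -0.17 and -0.29. The duct list includes EbpIII and Gld, and the gut list LManI and LManII, which read at least 4 on every array.

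On the knockout ZT4 array Acp98AB was 1.91 above the highest of the other 5 arrays on the log2 scale, and 0.256% of all probe sets were at least 2-fold above those arrays. Smaller differences, all at levels under 4, were found for Mst57Da (2.98 against at most 2.33 on the other 5), EbpII (2.56 against at most 2.32) and Acp95EF (3.35 against at most 3.24). Acp53Ea was 0.04 above the other 5 on the log2 scale, and none of the remaining 8 genes exceeded them by more than that. A rise of at least 0.1 on this array was found in 1 of 10 seminal fluid genes, 2 of 29 other seminal genes, 1 of 6 duct and bulb genes, 0 of 23 testis genes and 0 of 23 gut enzymes. It was found in 3.76% of all probe sets, so counts of 1 or 2 genes are not read as a result.

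The genes with the most similar pattern were found by the root mean square of log2 differences from the median profile of the 10 genes over 8 arrays. The closest were BG642312 (0.12), the serpin gene Spn77Bc (0.17), CG17376 (0.18), Obp51a, of the odorant-binding protein family (0.23), and Anp (0.27). The gut protease gene Jon74E (0.29), CG5107 (0.29), CG9029 (0.30), CG10911 (0.34) and Dup99B (0.37) followed. Levels of BG642312 on the 2 high arrays were 9.90 and 9.24, those of Obp51a 9.27 and 8.50, and those of Jon74E 9.31 and 9.62. Among the 10 seminal fluid genes themselves the measure ran from 0.12 for Acp36DE and Acp63F to 1.45 for Acp98AB. The measure depends on probe brightness as well as on the pattern over arrays.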

How the data were processed

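The deposited values are log2 intensities of Affymetrix Drosophila Genome 2.0 arrays, 1 array for each of 8 conditions. GCRMA, named in the submitters' processing notes, is a method that corrects background and normalizes all arrays jointly; its version and settings are not given in the sources used here. All arrays share the same lowest value, and values at it carry no order.

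Symbols come from the platform annotation, updated by gene ID through a RefSeq gene table (Drosophila genome Release 6), which also gave gene order. Of 18769 probe sets other than the 183 controls, 13647 had 1 symbol, 402 several and 4720 none. The fit used limma 3.58.1 in R 4.3.3 on the 8300 probe sets with a value of at least 4 on at least 2 arrays, with strain and time as terms, 3 residual degrees of freedom and Benjamini-Hochberg adjustment over those probe sets. It was tested on simulated data with a knockout difference that was equal at both times, and with no floor. That test does not cover a change at ZT16 alone in some strains, as these genes had. Tables and figures used matplotlib 3.10.9, pandas 2.3.3 and numpy 2.4.6 in Python 3.11.15.

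The members and the 13 other gene lists were chosen with earlier results of these data known. From each other list the 4 genes with the highest mean are named, and the 10 probe sets of most similar pattern. Further names, among them genes that were low or high on 1 array, the remaining head genes and the testis genes under 4, were picked after their values were seen. The list of male dosage compensation RNAs had no probe set with 1 symbol and is not reported. A gene of another list with more than 1 probe set is read at that of the highest mean. Gene sequences are not shown here. Alternatives covered the filter, quantile normalization, a floor, the fold, moderation and leaving out arrays. Having 8 arrays in all limits how precise any value can be.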

Additional observations from a re-analysis of the deposited data

How the results depend on the processing

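Seminal fluid genes at least 2-fold higher at ZT16 numbered 10, 10, 0 and 0 of 10 in the knockout, tim-gal4 control, w1118 and overexpression. These counts were the same after quantile normalization, with a fold of 4 and with values under 4 set to 4. In the knockout and the tim-gal4 control the smallest rise was 3.83 and the lowest ZT16 value 6.17. The other fold and the floor therefore could not change the counts. Taking the mean of all probe sets of a gene could not either, since each gene had 1 probe set. On the knockout ZT16 array all 10 genes remained higher than on the tim-gal4 control ZT16 array after quantile normalization, where the median difference was 0.76 in place of 0.73. With a fold of 4 the count of genes past it was 1 in place of 2, since fewer genes can pass a larger fold. In limma 0 of 10 genes were called in the 3 contrasts with no filter, with quantile normalization, and with trended and robust moderation. These fits also count as error a time change that is not shared by all strains. The same count under them therefore says little about the genes. Fits without 1 array leave a strain with a single array, so only their effect sizes are given. Without 1 array the median difference of the 10 genes ran from 2.22 (without either knockout array) to 4.68 (without either w1118 array) for time. It ran from 1.11 (without knockout ZT16) to 6.29 (without knockout ZT4) for the knockout, and from -5.66 (without overexpression ZT4) to -0.99 (without overexpression ZT16) for overexpression. The values 1.11, 6.29, -5.66 and -0.99 all depend on the time term that all strains share in the model. Between the ZT4 arrays themselves the median difference was 0.00 for the knockout and 0.00 for overexpression, each against its control. Between the ZT16 arrays it was 7.38 and -6.65 in the same order. The knockout ZT4 excess of Acp98AB was 1.88 after quantile normalization, an alternative chosen after seeing the data. With the ZT16 arrays of the knockout and the tim-gal4 control both left out, the 3 medians of the model were 0.00. The labels give no replicate numbers, and the time contrast is paired within strains through the strain term; without the strain block its median difference was 3.51 as before and 0 of 10 genes were called. The floor at 2.32 limits every difference that involves one of the 6 low arrays.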

Other observations

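Some probe sets that carry several gene symbols, and so were left out of the counts, include a seminal fluid gene. The probe set annotated to Acp33A and CG15841 read 10.21 on the knockout ZT16 array, 9.28 on the tim-gal4 control ZT16 array and 2.32 on the other 6. That of Acp24A4 and CG3513 read 6.68 and 6.55 on these arrays and 2.36 on the others. A probe set shared by CG43061 and Sfp93F read 4.34 and 2.85, and 2.32 elsewhere. Another, shared by these genes and CG42869, read 2.32 on all 8 arrays. That of Sfp24F and CG15431 read 2.33 on the knockout ZT16 array, 2.55 on the tim-gal4 control ZT16 array and at most 2.33 on the others.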
